A study of Mus musculus with 6 samples.

Results

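The nuclear genes of oxidative phosphorylation were followed in mouse lungs whose epithelium had lost Rptor. They were picked by symbol, through a naming rule that was set with earlier results of these data known: every gene whose symbol starts with Ndufa, Ndufb, Ndufc, Ndufs or Ndufv was counted as complex I, Sdha to Sdhd as complex II, Uqcr as complex III, Cox4 to Cox8 as complex IV and Atp5 as complex V. This gave 92 of the 23420 genes listed, with 45 in complex I, 4 in complex II, 8 in complex III, 18 in complex IV and 17 in complex V. The rule itself uses no measured value. Of the 92 genes, 82 encode subunits. The other 10 are the assembly factors Ndufaf1 to Ndufaf7, the supercomplex factor Cox7a2l, and Atp5s and Atp5sl, which are named after complex V but encode no subunit of it.

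RNA was sequenced from whole lungs of E11.5 mouse embryos, when the primary buds are branching. Control lungs were Rptor f/+; Shh Cre/+ and mutant lungs were Rptor f/f; Shh Cre/+, with 3 pools in each group and 3 or 4 lungs in each pool. Both groups thus carried the Shh Cre allele and at least 1 floxed copy of Rptor. Rptor encodes the scaffold of mTORC1, a kinase complex that couples nutrients and energy to growth. Shh Cre acts in the lung epithelium, so the mesenchyme, vessels and blood cells of a mutant pool still held Rptor. The comparison asks how the nuclear transcripts of the respiratory chain and ATP synthase differed in lungs without epithelial mTORC1.

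Oxidative phosphorylation takes place at the inner mitochondrial membrane. Complexes I and II pass electrons from NADH and succinate to coenzyme Q, complex III hands them to cytochrome c, and complex IV reduces oxygen. Complexes I, III and IV pump protons, and complex V, the ATP synthase, uses the proton gradient to make ATP. Complex II is encoded wholly in the nucleus, whereas the other complexes also hold subunits encoded in mitochondrial DNA. mTORC1 is known to promote mitochondrial gene expression, in part through the translation of nuclear-encoded mitochondrial transcripts, a step that RNA levels do not show.

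The libraries were of similar depth, with 20197642 to 21276090 reads assigned to genes in the 5 pools whose whole reads could be recovered, and with 20705058 to 20865998 normalized counts in the 6 pools. A normalized count is a read count divided by a size factor of its library. Rptor itself had normalized counts of 2126, 2193 and 2279 in control pools against 2023, 2137 and 2148 in mutant pools, which did not differ past the threshold (limma adjusted p = 0.584). The table counts the whole gene in whole lungs. The lung epithelial gene Nkx2-1 was present in every pool at 1977 to 2686. Of 18 epithelial markers, 15 were lower in mutant lungs at an unadjusted p under 0.05 and 1 was higher, and their summed normalized count was 22379 to 27089 in control pools and 18707 to 19933 in mutant pools. The summed count of 11 mesenchymal markers was 92330 to 99018 in control pools and 112655 to 120728 in mutant pools. In whole-lung RNA, fewer cells of a type and less RNA per cell cannot be told apart, and the part of cell composition in the values below was not tested. The labels do not give the litters behind each pool. The study's methods say that mutants of several litters were combined, but not how litters were spread over these pools, so p-values measure the spread between the pools as they are.

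None of the oxidative phosphorylation genes changed past the threshold, and most were measured closely enough to bound the change in whole-lung RNA. These intervals do not bound a change in the epithelium alone, since the other cells of a mutant pool still held Rptor. After a filter on low values (3 or more pools had to reach a normalized count of 1) 88 of the 92 genes were tested among 17168 genes with limma on log2(normalized count + 1). At a Benjamini-Hochberg adjusted p under 0.05, 0 of the 88 were called, while 86 of all genes tested were called (0.501%). The lowest adjusted p was 0.213, for Cox7a2l. At an unadjusted p under 0.05, 4 of the 88 were higher in mutant lungs (6.67% of all genes were) and 0 were lower (6.89% of all genes were). The 4 were Ndufc1 and Ndufa6 of complex I, Uqcrb of complex III and Cox7a2l. The median log2 fold change, mutant over control, was 0.031 over the 88 genes and -0.002 over all genes tested, with 58 values above 0 and 30 below. For 67 of the 88 genes (76.1%) the 95% interval of the log2 fold change lay within 0.25 on either side of 0, that is between a change of -15.9% and one of 18.9%. Among all genes tested, 38.6% had an interval that narrow.

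**Figure D1:**
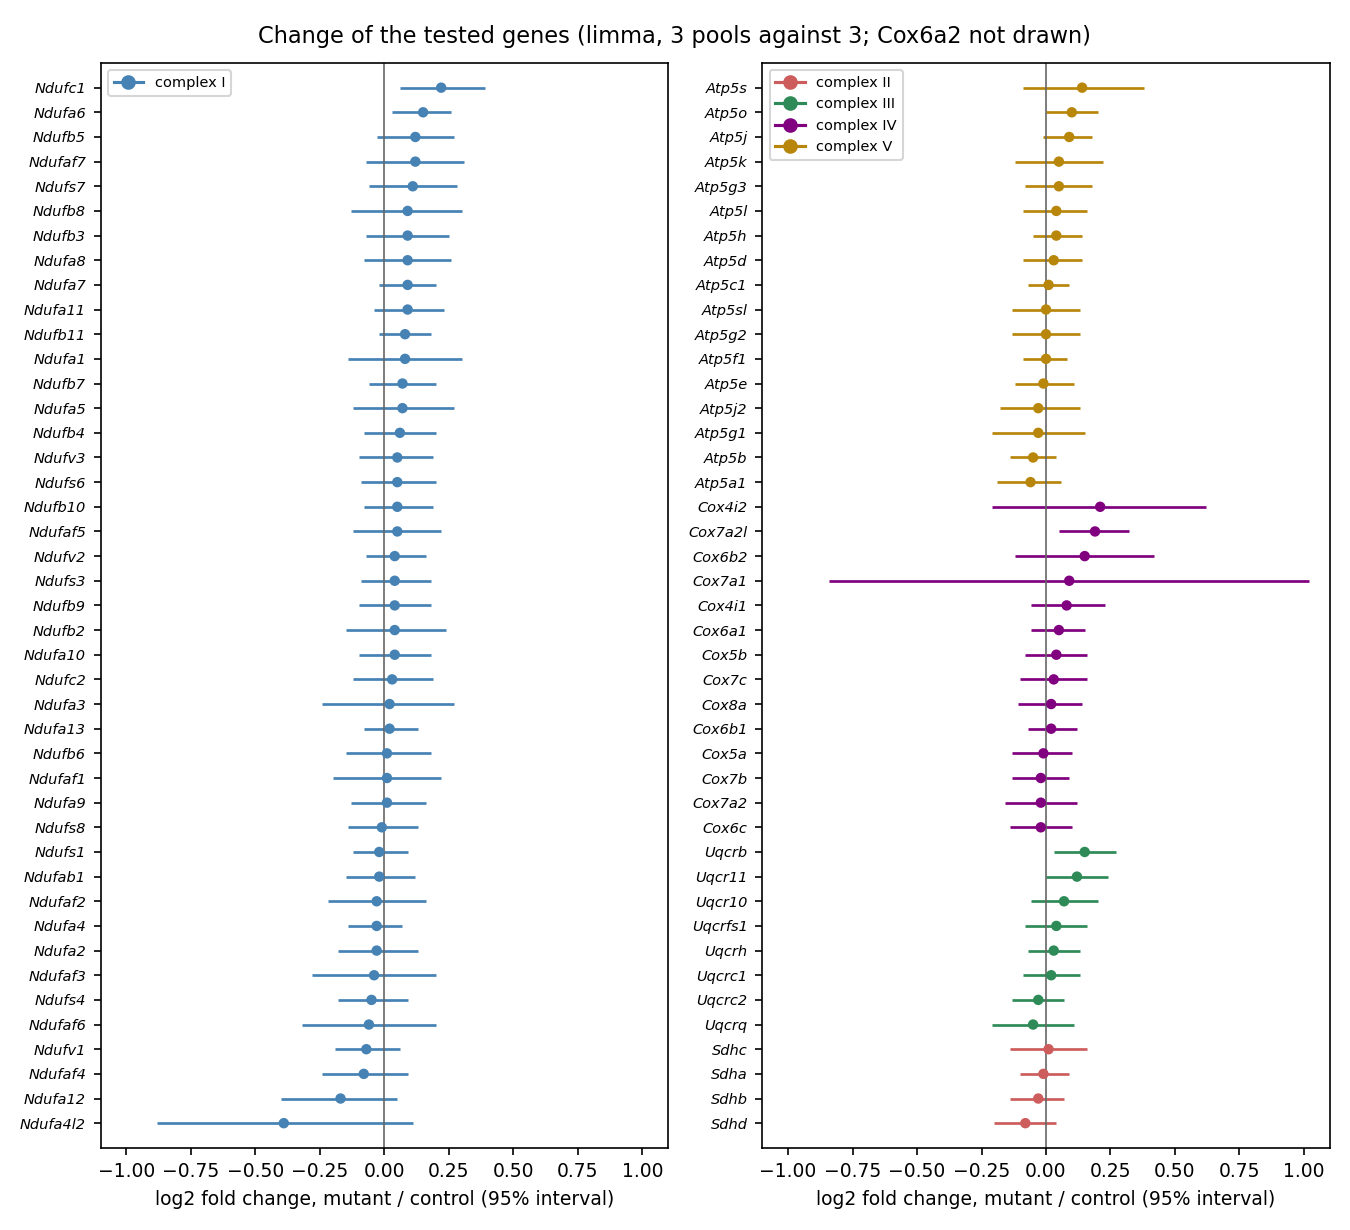
Log2 fold change of the tested genes (mutant over control, x axis) with its 95% limma interval, complex I on the left and complexes II to V on the right. Each point is 1 gene and colours mark the complexes. Most points lie within 0.25 of 0, the intervals of Ndufc1, Ndufa6, Uqcrb and Cox7a2l lie above 0, and genes of low count such as Cox7a1 have wide intervals. Cox6a2, at -1.02 with an interval of -2.57 to 0.53, is not drawn.

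Groups that do not overlap were no more common among these genes than among genes at large. The 3 mutant pools all exceeded the 3 control pools for 9 of the 88 genes (9.77% of all genes tested), and all were below for 1 (10.5% of all genes tested). The 9 were Ndufa6, Ndufa7, Ndufb11, Ndufc1, Uqcr11, Uqcrb, Cox7a2l, Atp5j and Atp5o, and the 1 was Ndufa4l2.

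The summed normalized count of all 92 genes was 207237, 208388 and 188990 in control pools 1 to 3 and 202429, 201546 and 203053 in mutant pools 1 to 3. Mutant pools lay between the control pools, and the means differed by 0.40%. Without control pool 3 the summed count of the 88 tested genes differed by -2.63%, and the mutant pools were below both remaining control pools. The genes made up 0.913% to 0.999% of all normalized counts in control pools and 0.966% to 0.977% in mutant pools. Control pool 3 was the lowest pool and set most of the control spread.

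**Figure D2:**
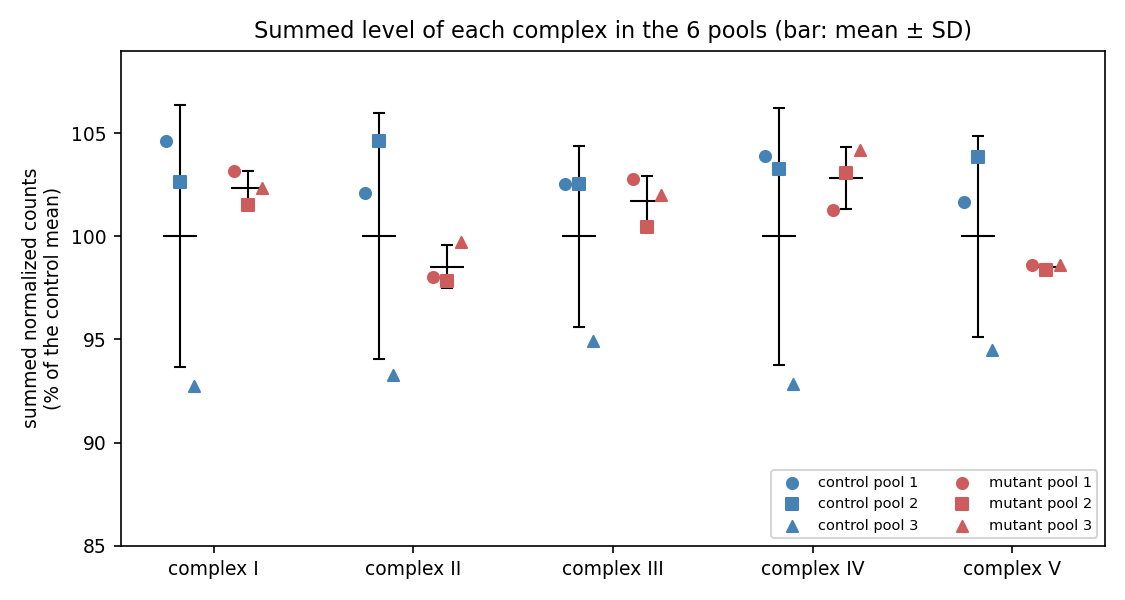
Summed normalized count of each complex in each pool, as a percentage of the control mean (y axis, which does not start at 0), with control pools in blue and mutant pools in red. Marks stand for pools, and bars for the mean ± SD of 3 pools. In each complex control pool 3 is the lowest of the 6 and the other 2 control pools are near or above the mutant pools.

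By the naming rule complex I carries 38 genes for subunits here and 7 for assembly factors. The 38 include Ndufa4, whose protein is found in complex IV, and its relative Ndufa4l2. The median log2 fold change of complex I was 0.04. Its summed count was 52262, 51282 and 46343 in control pools against 51537, 50725 and 51130 in mutant pools. The groups overlapped. The catalytic core, 7 subunits that include those holding the flavin and the iron-sulfur clusters, had 4 values above 0 and 3 below. Ndufv1, the flavin subunit that takes electrons from NADH, had 2302, 2467 and 2108 in control pools against 2178, 2175 and 2197 in mutant pools. The groups overlapped, and the gene was picked for its role after its values were seen.

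The accessory subunits of complex I, which surround the core, held its lowest p-values. Ndufc1, on chromosome 3 from 51404677 to 51408988 (mm10), had normalized counts of 407, 385 and 363 in control pools against 468, 435 and 446 in mutant pools. Every mutant pool was above every control pool (log2 fold change 0.22 ± 0.07, SE, limma adjusted p = 0.214). Ndufa6, on chromosome 15 from 82350140 to 82354322, had 848, 816 and 826 in control pools against 941, 912 and 903 in mutant pools. Its groups did not overlap either (log2 fold change 0.15 ± 0.05, limma adjusted p = 0.242). Ndufa7 followed with 1412, 1343 and 1313 against 1472, 1422 and 1434, again without overlap (log2 fold change 0.09 ± 0.05, limma adjusted p = 0.447). The 10 Ndufb genes, which encode subunits of the membrane arm, all had log2 fold changes above 0, from 0.01 to 0.12, and none had an adjusted p under 0.452. Their summed count was 12220, 11892 and 10568 in control pools against 12077, 12126 and 12181 in mutant pools, so control pool 1 was above the mutant pools and control pools 2 and 3 were below them. Without control pool 3, 7 of the 10 Ndufb genes were above 0 and 3 below, and the summed count differed by 0.599%.

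Of the X-linked genes, Ndufb11 had 2041, 1952 and 1906 in control pools against 2064, 2110 and 2064 in mutant pools, and Ndufa1 had 269, 247 and 234 against 290, 246 and 257. The third, Cox7b of complex IV, had 2084, 1938 and 1876 against 1933, 1922 and 1943. Only for Ndufb11 among the 3 did the groups not overlap, and none had an adjusted p under 0.452 (limma). Xist, the RNA that coats the inactive X chromosome and marks female cells, stood at 4599, 309 and 12989 in control pools against 41.9, 466 and 161 in mutant pools. The pools thus differed in their mix of sexes, and control pool 3 held the highest level. The log2 fold change of Xist was -4.16 with all pools and -3.01 without control pool 3 (limma adjusted p = 0.164 and 0.113). Control pools 1 and 3 stood far above all mutant pools and control pool 2 within their range. The mix of sexes was therefore in part confounded with genotype. With Xist as a covariate in limma, 0 of the 88 genes were called (0.396% of all genes tested). The balance of directions turned in that fit, with 33 values above 0 and 55 below and a median of -0.02.

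The assembly factors Ndufaf1 to Ndufaf7 help build complex I without staying in it. Their median log2 fold change was -0.03, with 3 values above 0 and 4 below, and their summed count was 2576, 2536 and 2451 in control pools against 2554, 2461 and 2542 in mutant pools. Of the exon bases of Ndufaf2, 65.6% are shared with other annotated genes, and for Ndufb6, Atp5o and Ndufa13 the shares were 39.0%, 31.1% and 30.0%, so reads of those genes could have been lost or assigned to a neighbour. Ndufs5, an accessory subunit used by most cells, was listed at 0 in all 6 pools and was not tested. That 0 is not read as absence of its transcript.

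Complex II had the lowest median of the 5 complexes, -0.02, and is the one complex that is both an enzyme of the tricarboxylic acid cycle and of the respiratory chain. Sdha, the flavoprotein that oxidizes succinate, had 4977, 5091 and 4682 in control pools against 5024, 4735 and 4935 in mutant pools. Sdhb, the iron-sulfur subunit, had 2691, 2692 and 2437 against 2577, 2504 and 2549. For both the mutant pools lay within the range of the control pools. Sdhc, a membrane anchor, had 3336, 3487 and 2852 against 3134, 3217 and 3350. Sdhd, the other anchor, had 2247, 2310 and 2133 against 1985, 2243 and 2110, with a log2 fold change of -0.08 and a 95% interval of -0.20 to 0.04 (limma adjusted p = 0.570). None of the 4 intervals reached 0.25 in either direction.

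In complex III, the lowest p-values were those of small subunits. Uqcrb, known as the ubiquinone-binding protein and encoded on chromosome 13 from 66900617 to 66905378, had 1359, 1251 and 1314 in control pools against 1530, 1409 and 1419 in mutant pools (log2 fold change 0.15 ± 0.05, SE, limma adjusted p = 0.248). Uqcr11 had 1025, 935 and 935 against 1059, 1051 and 1034 (log2 fold change 0.12 ± 0.05, limma adjusted p = 0.379). For both, the groups did not overlap. Uqcr10 had 1362, 1252 and 1187 against 1287, 1356 and 1331, which overlapped. The core proteins Uqcrc1 and Uqcrc2 and the Rieske iron-sulfur protein Uqcrfs1 had log2 fold changes of 0.02, -0.03 and 0.04. The difference between the small subunits and the core was not tested.

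Complex IV takes several subunits from alternative genes. The 10 common isoforms had 6 values above 0 and 4 below, all between -0.02 and 0.08, and a summed count of 28858, 28391 and 25701 in control pools against 27771, 28087 and 28526 in mutant pools. Cox4i1, the common form of the subunit that takes part in the control of the enzyme by ATP, had 5479, 5202 and 4477 against 5345, 5345 and 5312. The groups overlapped, and control pool 3 was the lowest pool. Cox7a2l, on chromosome 17 from 83501918 to 83517330 on the minus strand (mm10), joins complexes III and IV in supercomplexes. It had 2652, 2915 and 2450 in control pools against 2917, 3124 and 3070 in mutant pools. Every mutant pool exceeded every control pool, by 2 counts between mutant pool 1 and control pool 2 (log2 fold change 0.19 ± 0.06, SE, limma adjusted p = 0.213).

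The tissue-restricted isoforms of complex IV were at low levels in these lungs. Cox4i2, the form typical of adult lung, had 84.5, 66.1 and 74.6 in control pools against 77.7, 111 and 74.6 in mutant pools. Cox6b2, known from testis, had 145, 165 and 127 against 168, 158 and 158. Cox7a1 and Cox6a2, the forms of heart and skeletal muscle, had 7.86, 5.17 and 7.95 against 4.09, 8.82 and 10.8, and 0.982, 13.4 and 5.96 against 3.07, 1.96 and 0.982. In each of the 4 genes the groups overlapped. Cox8b and Cox7b2 stayed between 0 and 1.96 in every pool and Cox8c was at 0 in all, where a count of 0 allows up to 3 reads in a pool by counting error alone. Of the cardiac muscle markers, 3 of 15 were lower in mutant lungs at an unadjusted p under 0.05, Myh6 among them (108, 127 and 51.7 against 27.6, 51.0 and 32.4), and the part of heart tissue in the low counts of Cox6a2 was not tested.

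The paralogs were then compared as log2 ratios within a pool, with 1 added to each normalized count. The size factor then enters only through the added 1, which weighs in genes of low count such as Cox6a2. Of 11 pairs listed, 8 had counts in every pool and were tested with an exact permutation test, two-sided, which cannot give a p under 0.1 for 3 pools against 3. The log2 ratio of Cox7a2l to Cox7a2 was 0.72, 0.92 and 0.76 in control pools against 1.07, 0.99 and 0.97 in mutant pools, without overlap (difference 0.21, exact permutation p = 0.1, adjusted over 8 pairs 0.6). Ndufa4l2, a hypoxia-induced relative of Ndufa4, had 39.3, 36.2 and 54.7 in control pools against 34.7, 34.3 and 28.5 in mutant pools, while Ndufa4, whose protein is found in complex IV despite its name, had 2776, 2784 and 2547 against 2710, 2605 and 2599. Their log2 ratio was -6.11, -6.23 and -5.52 in control pools against -6.24, -6.21 and -6.46 in mutant pools, which overlapped (exact permutation p = 0.2). The other 6 pairs had exact permutation p-values of 0.3 to 0.7 and groups that overlapped.

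**Figure D3:**
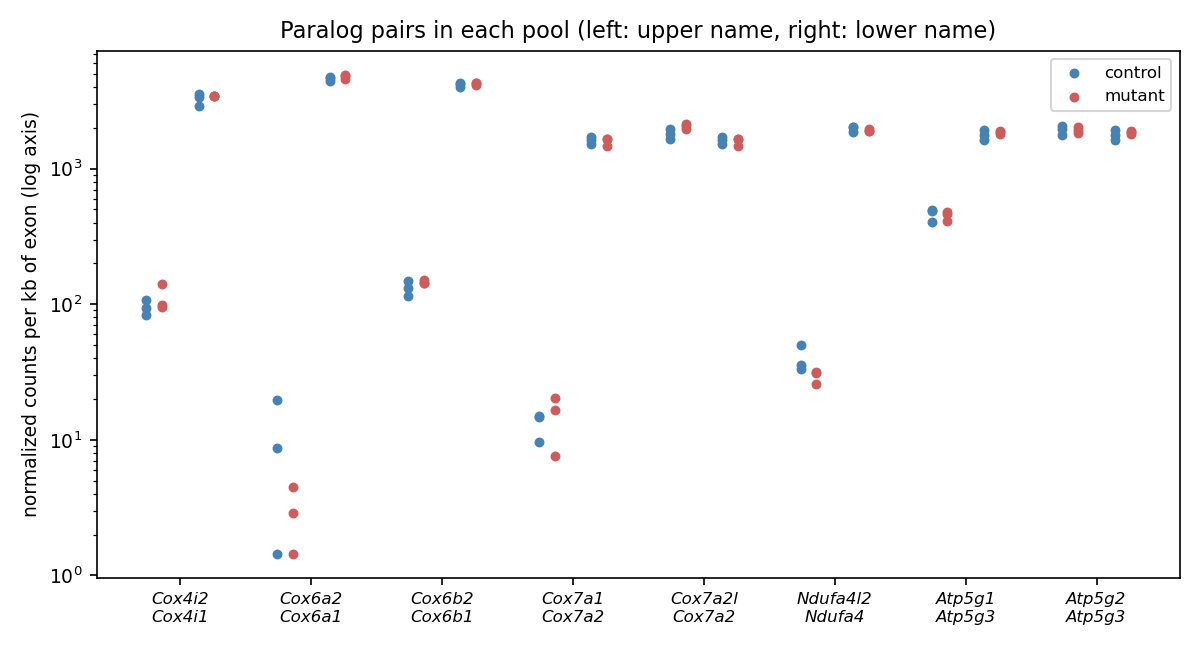
Normalized counts per kb of exon (log axis) of the 8 pairs with counts in every pool, control pools in blue and mutant pools in red. In each pair the upper gene name is the left cluster and each point is 1 pool. Cox4i2, Cox6b2, Cox7a1, Cox6a2 and Ndufa4l2 lie far below their partners, whereas Cox7a2l and the 3 Atp5g genes lie within a factor of about 4 of theirs.

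On the scale of counts per kb of exon, control lungs had 34.5 ± 4.91 (SD, n = 3 pools) times more Cox4i1 than Cox4i2 and 31.9 ± 3.33 times more Cox6b1 than Cox6b2. Ndufa4 stood 51.3 ± 12.7 times above Ndufa4l2 in control lungs and 64.8 ± 6.62 times above it in mutant lungs. The coding sequences of the tested pairs shared runs of at most 8 to 28 bases, the longest between Ndufa4l2 and Ndufa4. Lengths are those of all annotated exons of a gene in GENCODE M21 on the same build, so a gene with long alternative exons, such as Atp5g1 with 4912 bases, gets a lower level per kb. That annotation names 12 pseudogenes after these genes, none of which has a row in the table, so reads from them could not be followed.

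Complex V held the most abundant transcripts. Its F1 part, which holds the catalytic head and the central stalk, made up 63593, 66498 and 59309 counts in control pools against 61528, 60839 and 61259 in mutant pools. Atp5b, the catalytic beta subunit, had 26509, 26997 and 25054 against 25782, 24637 and 25319, and Atp5a1, the alpha subunit, had 24865, 27235 and 22851 against 23896, 23939 and 23779. For both genes the groups overlapped, and the 95% intervals were -0.14 to 0.04 and -0.19 to 0.06. Atp5c1 and Atp5d, of the central stalk, had log2 fold changes of 0.01 and 0.03. Per kb of exon Atp5a1 stood at 7970 in control lungs and 7610 in mutant lungs, Cox8a at 7510 and 7580, and Atp5b at 6180 and 5960, the 3 highest levels of the 92 genes.

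In the peripheral stalk, the groups of Atp5o and Atp5j did not overlap. Atp5o, which encodes the subunit that joins the head to the stalk, had 4323, 3974 and 4381 in control pools against 4475, 4527 and 4561 in mutant pools (log2 fold change 0.10 ± 0.04, SE, limma adjusted p = 0.375). Atp5j had 2294, 2249 and 2234 against 2470, 2423 and 2307 (log2 fold change 0.09 ± 0.04, limma adjusted p = 0.411). Atp5s had 154, 159 and 167 against 177, 191 and 164, which overlapped.

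The rotating ring of complex V is built of subunit c, which 3 genes encode. They are shown because they share a protein product but can be told apart by their reads: the last 75 codons of Atp5g1, Atp5g2 and Atp5g3 give the same amino acids, while Atp5g1 differs from Atp5g3 at 45 of the 225 bases and Atp5g2 at 48. The first 120 of those bases are printed from the annotated transcripts, with capitals where a base differs from Atp5g3.
Atp5g1: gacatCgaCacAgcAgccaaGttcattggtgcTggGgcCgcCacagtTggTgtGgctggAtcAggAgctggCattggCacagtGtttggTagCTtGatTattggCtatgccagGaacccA
Atp5g2: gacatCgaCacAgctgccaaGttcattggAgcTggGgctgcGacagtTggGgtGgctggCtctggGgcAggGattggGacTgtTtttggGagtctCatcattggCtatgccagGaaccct
Atp5g3: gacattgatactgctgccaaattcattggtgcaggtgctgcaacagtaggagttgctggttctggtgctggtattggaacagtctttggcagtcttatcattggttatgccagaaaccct
Atp5g1 had 2389, 2414 and 1991 in control pools against 2003, 2291 and 2352 in mutant pools. Atp5g2 had 3264, 3447 and 2978 against 3061, 3378 and 3225, and Atp5g3 had 4212, 3863 and 3552 against 3895, 4041 and 4107. The groups overlapped for each. Atp5g3 made up 41.4% ± 1.5 (SD, n = 3 pools) of the counts of the 3 genes in control lungs and 42.5% ± 0.93 in mutant lungs, and Atp5g1 24.1% ± 0.73 and 23.4% ± 0.98. These differences were smaller than or near the SDs.

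Control pool 3 stood apart from the other pools in these genes. It was the lowest of the 6 pools for 57 of the 88 genes (64.8%), against 24.3% of all genes tested, and for 75 of the 88 it was below the mean of the other control pools, by a median of 0.13 on the log2 scale. No other pool moved by more than 0.08 in this measure. The spread was larger among control pools than among mutant pools for 65 genes (73.9%), against 62.3% of all genes tested. A low control pool 3 was not particular to these genes. It was the lowest pool for 5 of 6 smooth muscle markers, 4 of 5 mesothelial markers and 5 of 7 genes of ATP, ADP and phosphate exchange. In other lists control pool 3 was the lowest for fewer, with 1 of 18 epithelial markers, 0 of 6 pericyte markers and 3 of 13 coenzyme Q synthesis genes. Of the 6 erythroid genes with counts above 0, 4 were highest in this pool, among them Hbb-bh1, an embryonic globin (9007, 4545 and 15059 in control pools, 7355, 6460 and 7049 in mutant pools), while Hbb-y and Alas2 were highest in mutant pool 1. Of the 6 skeletal muscle genes, Myog (70.7, 18.6 and 182 against 116, 20.6 and 80.5) and Myod1 were highest in control pool 3 and the other 4 in mutant pools. Of the 6 pericyte markers, 5 were highest in control pool 3 and 1 in mutant pool 3. Of the 15 cardiac muscle markers, 6 were highest in control pool 3, 4 in control pool 2 and 3 in control pool 1, with 1 each in mutant pools 2 and 3. The summed counts of 12 erythroid markers, of which 10 have a row and Hba-a1, Hba-a2, Hbb-b1 and Hbb-b2 are at 0, were 98497 to 127998 in control pools and 98089 to 121796 in mutant pools. The part of these differences in the lower values of the oxidative phosphorylation genes was not tested.

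**Figure D4:**
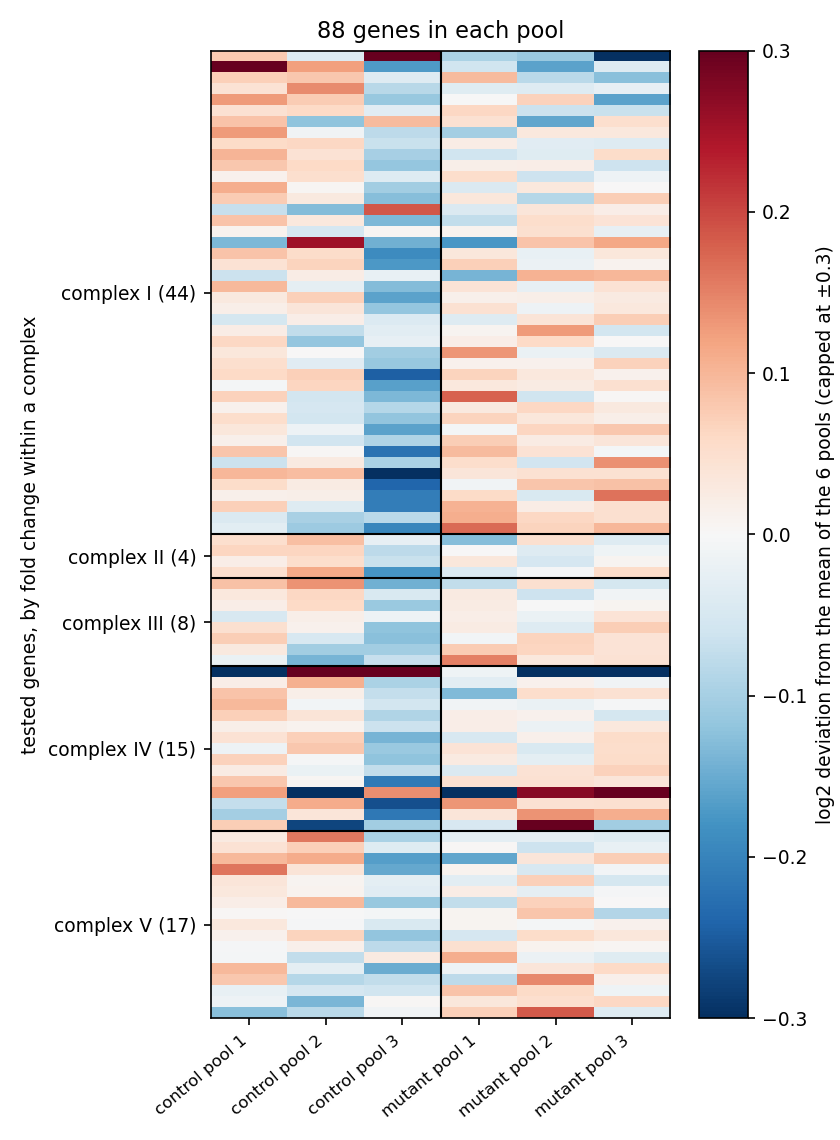
Log2 deviation of each of the 88 tested genes (rows, ordered by complex and then by fold change) from its mean over the 6 pools (columns), blue for lower and red for higher, capped at 0.3. The column of control pool 3 is mostly blue in every complex, and the other columns are mixed.

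Without control pool 3 the balance of directions turned. In limma on the other 5 pools, 37 of the 88 genes had a log2 fold change above 0 and 51 below, with a median of -0.01. The fold change was lower than with all pools for 75 genes and 21 changed sign. One gene, Ndufa12, was called (468 of all genes tested, 2.75%). At an unadjusted p under 0.05, 5 genes were higher (8.37% of all genes) and 6 lower (8.58%). Groups did not overlap, with 2 control pools left, for 11 higher genes (16.2% of all genes tested) and 19 lower genes (17.8%), shares of 12.5% and 21.6%. The summed count of complex II in mutant lungs then differed by -4.68% and that of complex V by -4.11%, without overlap. Complexes I, III and IV differed by -1.24%, -0.788% and -0.722% and overlapped. The parts of complex V were not alike. Its F1 part differed by -5.9% and its c ring by -3.51%, without overlap. The stalks and membrane part differed by 1.86% and the other 2 genes by 2.27%, with overlap.

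**Figure D5:**
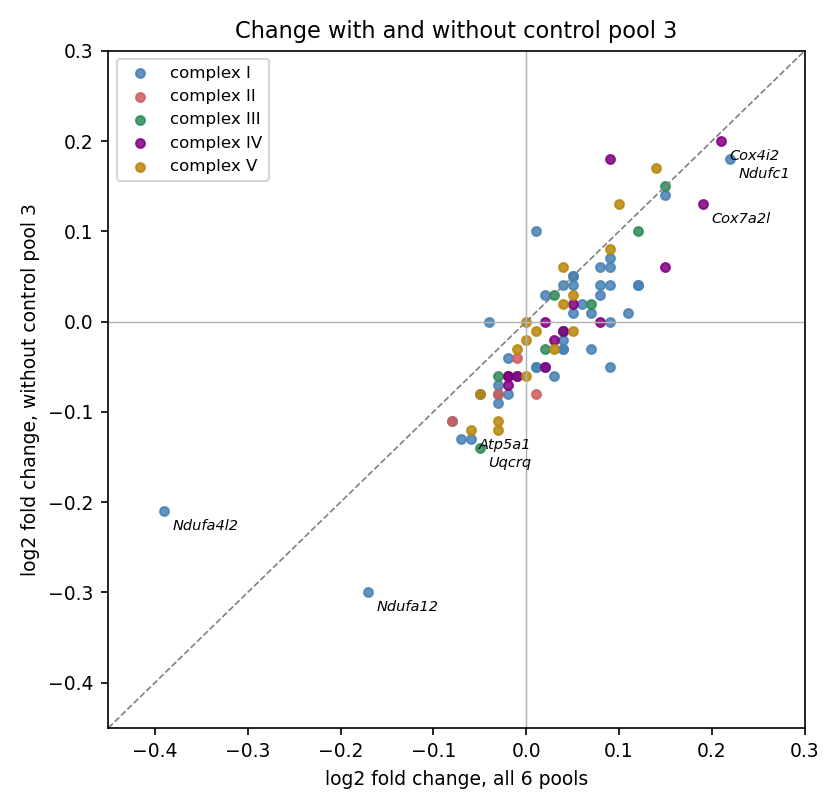
Log2 fold change of each tested gene with all 6 pools (x axis) and without control pool 3 (y axis), coloured by complex, with the line of equal values dashed. The comparisons share 5 pools. 75 of 88 points lie below the line, Ndufa12 falls from -0.17 to -0.30, and Cox6a2 is beyond the axes.

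Ndufa12, an accessory subunit on chromosome 10 from 94198720 to 94221443 that is named after its values were seen, had normalized counts of 1331, 1170 and 954 in control pools against 1030, 961 and 1046 in mutant pools. Control pools 1 and 2 were above all mutant pools and control pool 3 was below them. With all pools the log2 fold change was -0.17 ± 0.10 (SE, limma adjusted p = 0.488). Without control pool 3 it was -0.30 ± 0.06 (limma adjusted p = 0.0247). Tests on recovered whole reads, made on the same 5 pools, gave -0.31 with an edgeR adjusted p of 0.0234 (3.68% of all genes called) and -0.31 with a DESeq2 adjusted p of 0.0119 (2.20% of all genes called).

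Besides Ndufa12, 10 genes had an unadjusted p under 0.05 without control pool 3. The lower ones were Ndufv1 (-0.13), Uqcrq (-0.14), Atp5a1 (-0.12), Atp5b (-0.08) and Atp5j2 (-0.11), as log2 fold changes. The higher ones were Ndufc1 (0.18), Ndufa6 (0.14), Uqcrb (0.15), Cox7a2l (0.13) and Atp5o (0.13). None of these 10 had a limma adjusted p under 0.05 without control pool 3, the lowest being 0.111 for Atp5a1. Uqcrb, Ndufa6, Cox7a2l and Ndufc1 kept values above 0 in both fits, which share 5 pools. With Xist as a covariate Uqcrb, Ndufa6, Cox7a2l and Ndufc1 had no unadjusted p under 0.05 (limma). Atp5a1, Atp5b, Atp5o and Ndufv1 did have an unadjusted p under 0.05 in that fit. None of them was called there, and the lowest limma adjusted p was 0.254, for Atp5o.

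A ratio between the summed counts of 2 complexes cancels a shift that both share in a pool. They were computed after the values were seen and carry no test. The log2 ratio of complex I to complex V was -0.82, -0.88 and -0.89 in control pools against -0.80, -0.82 and -0.81 in mutant pools, and that of complex IV to complex V was -1.54, -1.58 and -1.60 against -1.53, -1.50 and -1.49. Neither overlapped, and the means differed by 0.06 each. Complex II relative to complex IV went from -1.26, -1.22 and -1.23 to -1.28, -1.31 and -1.30, a difference of -0.06. Complex II relative to complex V was alike, at -2.80, -2.80 and -2.83 against -2.82, -2.82 and -2.79. Of the 10 pairs of complexes, 6 had groups that did not overlap, and the differences were at most 0.06 in size. The 10 ratios are built from 5 sums and are not independent. Among single genes, groups did not overlap for 9.77% in the higher and 10.5% in the lower direction. That share is for levels of single genes, and none was computed for ratios of summed counts.

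Genes that serve the complexes were read from 10 lists. The 13 subunits encoded in mitochondrial DNA have no row and were not analysed here. Of the 75 tested genes of the other 9 lists, 0 were called at an adjusted p under 0.05 (limma). At an unadjusted p under 0.05, 3 were higher and 2 lower, against 6.67% and 6.89% of all genes tested. Among the electron carriers, cytochrome c (Cycs) had 1212, 1051 and 1087 in control pools against 1172, 1059 and 1089 in mutant pools, and was picked for its role. Coq2, which joins the ring and the tail of coenzyme Q, had 903, 886 and 870 against 769, 778 and 768, all lower (log2 fold change -0.20 ± 0.05, SE, limma adjusted p = 0.133). The mitochondrial ADP/ATP carrier Slc25a5 had 6475, 6622 and 5760 against 5601, 5522 and 5714, also without overlap (log2 fold change -0.16 ± 0.05, limma adjusted p = 0.212). Without control pool 3 Slc25a5 was called, at -0.22 (limma adjusted p = 0.00578), as were 2.75% of all genes tested. Xist had a log2 fold change of -3.01 in that fit, and the part of the mix of sexes in this value of Slc25a5 was not tested.

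On the other side, Tmem126b, an assembly factor of complex I, had 237, 231 and 217 in control pools against 276, 279 and 266 in mutant pools (log2 fold change 0.26 ± 0.09, SE, limma adjusted p = 0.212). Atpaf1, which assembles the F1 head, had 270, 286 and 260 against 323, 293 and 320, and Vdac1, the outer membrane channel, had 5504, 5551 and 4831 against 5851, 5689 and 5718. In these 3 genes every mutant pool was above every control pool. Without control pool 3 their log2 fold changes were 0.22, 0.16 and 0.06, and that of Vdac1 was 0.12 with all pools. The 22 tested assembly factors of complex IV had a median of 0.03 and no gene at an unadjusted p under 0.05. Cox20 (890, 866 and 927 against 863, 815 and 774) and Lrpprc, which stabilizes mitochondrial transcripts (2338, 2552 and 2388 against 2295, 2292 and 2254), had the lowest p-values there, with mutant pools below control pools.

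The promoters of the genes were read from RefSeq (GRCm38.p6), as 250 bases before to 50 bases after the start site, which 76 of the 92 genes had. Motifs of 4 known regulators of respiratory genes were searched on both strands. The NRF1 motif GCGCATGCG stood in 10 of 76 (13.2%, against 2.6% of 17492 protein-coding genes), the YY1 motif AAGATGGCG in 8 (10.5% against 2.1%), the ETS motif CCGGAAG, bound by GABPA among others, in 17 (22.4% against 12.9%), and the SP1 motif GGGGCGGGG in 13 (17.1% against 17.3%). A match is a run of letters and not a shown binding site. The stretches around the NRF1 match are printed for 4 genes to show the letters that were matched. Capitals mark CGCATGCGC, the motif read on the other strand. In Cox6a1, Atp5k and Atp5g2 the base before the capitals is g, so the motif also matches on the printed strand, starting at that g.
Cox6a1, chr5:115349096-115349134, minus strand: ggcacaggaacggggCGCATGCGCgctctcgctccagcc
Atp5k, chr5:108434425-108434463, minus strand: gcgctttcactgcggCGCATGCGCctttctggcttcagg
Atp5l, chr9:44920960-44920992, minus strand: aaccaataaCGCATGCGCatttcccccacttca
Atp5g2, chr15:102671065-102671103, minus strand: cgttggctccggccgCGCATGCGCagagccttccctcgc
The 10 genes with the NRF1 motif had log2 fold changes from -0.08 to 0.12 with a median of 0.05, and the 17 with the ETS motif from -0.08 to 0.12 with a median of 0.03. The 35 tested genes with a promoter entry and none of the 4 motifs had a median of 0.04. In control pool 3 the NRF1 genes deviated from the mean of the 6 pools by a median of -0.09 and the genes without a motif by -0.11.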

How the data were processed

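The authors deposited 1 table of the 6 pools, in which each value is a signal, namely a read count scaled by the size factor of its pool. Per the labels, their processing used Trim Galore, HISAT2, featureCounts and DESeq2 on mm10, with no versions given, and sequencing was on a BGISEQ-500. The deposited log2 fold changes, test score and p-values of the authors' own comparison were not used, nor was the deposited mean signal. Size factors make pools comparable only if most genes do not change.

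Genes that reached a normalized count of 1 in 3 or more pools were fitted with limma 3.58.1 (R 4.3.3, trended variance) on log2(value + 1), over all genes, with Benjamini-Hochberg adjustment. A fold change on this scale understates the change of low genes. The naming rule for the members and the gene lists were chosen with earlier results of these data known, although the rule reads symbols only. In all 6 pools every value was a whole multiple (tolerance 0.1) of 1 step per library, which gave whole reads. The step of control pool 3 was so close to 1 that its reads were not taken as recovered, and edgeR 4.0.16 and DESeq2 1.42.0 were run on the other 5 pools. The fits were tested on simulated data. Alternatives were other variance, scaling, filter and pseudocount settings, a block for the replicate number, Xist as a covariate, each pool left out, and the 10 genes that encode no subunit left out. Named genes were the 3 with the lowest p in each complex, all paralog pairs, all Sdh genes, the 5 highest and 5 lowest by mean, X-linked genes and the 2 with the lowest p in each pathway list. Every other gene was picked after its values were seen. A depth of 20197642 to 21276090 reads a pool makes counting error small for genes above 1000 counts and large for those below 10. The limma intervals reflect the spread between pools, and the limit given for a count of 0 covers counting error only. One gene of complex I is not reported here by name and is left out of the plot of changes by gene.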

Additional observations from a re-analysis of the deposited data

How the results depend on the processing

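The 0 calls among the oxidative phosphorylation genes held in every fit that kept control pool 3. Without it, and in edgeR and DESeq2 on the same 5 pools, 1 gene was called lower (Ndufa12). Across the fits with 1 pool left out, the called genes of the table ranged from 1 to 468 (86 with all pools): 1 without control pool 1 or mutant pool 3, 12 without mutant pool 1, 21 without mutant pool 2, 147 without control pool 2 and 468 without control pool 3. They were 8 without a variance trend, 18 with no filter, 545 in edgeR and 416 in DESeq2. At an unadjusted p under 0.05, the higher oxidative phosphorylation genes (4) ranged from 2 to 7 and the lower (0) from 0 to 6 with 1 pool left out, with 2 higher without mutant pool 1, 7 higher and 1 lower without control pool 1, and 6 lower without control pool 3. With no filter 7 were higher (5.2% of all genes). With the Xist covariate 1 was higher and 3 lower (4.97% and 5.74% of all genes), in edgeR 5 and 8 (8.86% and 9.89%) and in DESeq2 3 and 4 (4.06% and 4.81%). The lower genes without overlap went from 1 to 19 without control pool 3, an alternative chosen after seeing the data. The cause was not tested.

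The median log2 fold change of complex II (-0.02) ranged from -0.08 to 0.005 with 1 pool left out and was -0.102 with the Xist covariate, -0.081 in edgeR and -0.080 in DESeq2. The median log2 fold change of complex III was -0.02 with the Xist covariate. Medians of the other complexes moved by less than the spread between pools.

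Of the named genes, uncalled values near 0 changed sign. With 1 pool left out, the log2 fold changes ranged from -0.16 to 0.45 for Cox7a1, -0.12 to 0.04 for Atp5g1, -0.06 to 0.05 for Atp5g2, -0.01 to 0.12 for Atp5g3, -0.00 to 0.14 for Cox4i1, -0.00 to 0.04 for Cox6b1, -0.06 to 0.04 for Cox7a2, -0.06 to 0.02 for Cox7b, -0.05 to 0.05 for Cox8a, -0.08 to 0.07 for Sdhc, -0.04 to 0.02 for Sdha, -0.03 to 0.07 for Atp5d, -0.01 to 0.03 for Atp5c1, -0.12 to 0.00 for Atp5a1, -0.04 to 0.13 for Sdhaf1, -0.05 to 0.05 for Sdhaf2 and -0.02 to 0.11 for Bcs1l. In edgeR and in DESeq2 on 5 pools, values below 0 were -0.01 for Atp5c1, -0.03 for Atp5d, -0.01 for Atp5g3, -0.00 for Cox4i1, -0.00 for Cox6b1, -0.05 for Cox8a, -0.05 for Sdhaf1, -0.05 for Sdhaf2 and -0.08 for Sdhc. With the Xist covariate they were -0.01 for Atp5c1, -0.03 for Atp5d, -0.02 for Atpif1, -0.05 for Bcs1l, -0.00 for Cox4i1, -0.02 for Cox6b1, -0.08 for Cox6b2, -0.06 for Cox8a, -0.02 for Ndufa1, -0.16 for Sdhaf1, -0.09 for Sdhaf2 and -0.12 for Sdhc, and 0.01 for Cox7a2.

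With the replicate number as a block, 71 genes of the table and 0 of the oxidative phosphorylation genes were called. Deviations of same-numbered pools correlated at -0.019, 0.101 and 0.031, so the numbers were not taken to pair the pools.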
